A study of Rattus norvegicus with 35 samples.

Results

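Thyroid hormone reaches the liver on carrier proteins, enters hepatocytes through membrane transporters, is activated or inactivated by deiodinases and conjugating enzymes, and acts through a nuclear receptor on target genes of lipid and energy metabolism. The 10 genes described here cover these steps. Serpina7 encodes thyroxine-binding globulin and Ttr encodes transthyretin, the carriers that the liver secretes into plasma. Slc16a10 encodes a membrane transporter of aromatic amino acids and iodothyronines. Dio1 encodes the type 1 deiodinase, which converts thyroxine to triiodothyronine, and Sult1b1 encodes a sulfotransferase that conjugates iodothyronines. Thrb encodes the receptor that carries most of the hormone's action in liver, and Thrsp, Me1, Gpd2 and Klf9 are genes that the hormone induces. Brominated aromatic compounds are studied as disruptors of this system, and Dio1, Thrsp, Me1 and Gpd2 are classical readouts of hormone status in rat liver.

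The genes were chosen by name, and every probe set annotated to 1 of them alone was taken, which gave 19 of the 31042 probe sets tested and 10 of the 14217 genes with a probe set of 1 symbol. A further probe set that names Ttr together with other genes was not used. Livers came from male Harlan Sprague Dawley rats dosed by gavage for 5 days from the age of 7 weeks with BTBPE, 1,2-bis(2,4,6-tribromophenoxy)ethane, a brominated flame retardant, in corn oil. The groups were corn oil vehicle alone and BTBPE at 0.07, 0.69, 6.88, 68 and 680 mg/kg, with 6 rats in each group except 5 at 68 mg/kg; diet and water were freely available. The left lobe was sampled the day after dosing ended, and each of the 35 samples was counted as 1 rat on 1 array. Liver identity was checked on its transcripts, and all 9 measured hepatocyte markers lay above the array medians, with mean log2 values of 9.36 to 14.39. All values below are log2 RMA values (a normalised hybridisation signal), in which 1 unit is a doubling of signal, and levels of different probe sets are not set against each other.

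All 10 genes were represented by a probe set above the lowest array median of 4.71, and 17 of the 19 probe sets lay above it. The genes lie on rat chromosomes 5 (Dio1), 1 (Thrsp and Klf9), 8 (Me1), 3 (Gpd2), 18 (Ttr), 15 (Thrb), X (Serpina7), 20 (Slc16a10) and 14 (Sult1b1) of assembly GRCr8. By array medians and correlations, array quality differed little between groups. Array medians ran from 4.71 to 4.79, and the median correlation of an array with the others ran from 0.993 to 0.995. The Actb 3′ minus 5′ difference, a measure of RNA integrity, had a median of 1.20 at 6.88 mg/kg (range 1.13 to 1.37). Its median was 1.10 in vehicle rats (1.04 to 1.23) and 1.10 to 1.16 in the other groups. The root mean square log2 difference between 2 arrays had a median of 0.239 for pairs from 1 group and 0.240 for pairs from different groups. P-values set a difference or a correlation against the spread between these rats.

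The proximal promoters of 3 of the genes are shown because Thrsp and Me1 moved with genes of fatty acid synthesis among rats of 1 dose, as described below, and because Slc16a10 held the only match to the thyroid hormone half-site. Each runs from 250 bases before to 50 bases after the annotated start, 5′ to 3′ on the gene's own strand, as given by RefSeq for GRCr8. Thrsp lies at chr1:161138915-161139214, Me1 at chr8:96540195-96540494 and Slc16a10 at chr20:45122309-45122608, all on the minus strand. Capitals mark AGGTCA, the thyroid hormone receptor half-site, or CCAAT, the NF-Y box, on either strand (read as ATTGG on the other).
Thrsp: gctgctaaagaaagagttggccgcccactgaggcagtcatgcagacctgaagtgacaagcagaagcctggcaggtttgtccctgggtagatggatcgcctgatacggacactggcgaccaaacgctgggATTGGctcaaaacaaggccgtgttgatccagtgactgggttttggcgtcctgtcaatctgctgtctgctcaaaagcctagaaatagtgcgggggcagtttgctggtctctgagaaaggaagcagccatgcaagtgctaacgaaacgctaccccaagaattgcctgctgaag
Me1: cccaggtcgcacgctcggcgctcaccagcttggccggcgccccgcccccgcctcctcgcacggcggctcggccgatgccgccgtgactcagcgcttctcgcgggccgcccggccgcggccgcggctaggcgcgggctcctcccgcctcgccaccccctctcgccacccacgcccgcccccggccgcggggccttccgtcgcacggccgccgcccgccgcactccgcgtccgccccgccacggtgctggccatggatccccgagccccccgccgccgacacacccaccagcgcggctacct
Slc16a10: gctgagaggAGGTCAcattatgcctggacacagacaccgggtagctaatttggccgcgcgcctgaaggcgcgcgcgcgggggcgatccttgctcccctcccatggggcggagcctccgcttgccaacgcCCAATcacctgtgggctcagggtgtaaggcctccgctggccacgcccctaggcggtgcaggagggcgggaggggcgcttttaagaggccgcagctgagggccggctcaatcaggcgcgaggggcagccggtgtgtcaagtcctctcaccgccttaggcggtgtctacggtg
In these windows AGGTCA occurred in 1 of the 10 genes, Slc16a10, with its first base at -241 from the start, against 16.2% of 33469 promoters. The NF-Y box CCAAT occurred in 5 of 10 (Thrsp, Klf9, Ttr, Slc16a10 and Sult1b1), against 37.5% of all promoters. The E-box CACGTG, which occurs in 6.42% of promoters, the sterol element core CACCCCAC (2.70%) and a direct repeat of the half-site with 4 bases between, AGGNCANNNNAGGNCA (0.179%), occurred in 0 of 10. Both strands were searched, and the motifs were chosen after the data had been seen. A match describes these letters only.

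The question put to each dose was whether the liver transcripts of these genes differed from vehicle, as a sign of altered thyroid hormone action. No gene of the 10 passed the test at any dose. limma called 0 of 31042 probe sets (0%) at 0.07, 0.69, 6.88, 68 and 680 mg/kg after Benjamini-Hochberg adjustment, 0 over dose rank and 0 in the F test over all doses. At an unadjusted p under 0.05 the members numbered 0 of 10 at 0.07 mg/kg, where 3.64% of all probe sets passed, 1 of 10 at 0.69 mg/kg (3.16%), 0 of 10 at 6.88 mg/kg (4.63%), 0 of 10 at 68 mg/kg (3.88%) and 0 of 10 at 680 mg/kg (4.95%). The trend over dose rank gave 0 of 10, against 5.14% of probe sets, and the F test 0 of 10, against 3.85%.

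The members also showed no common direction. Their means lay above the vehicle mean for 3 of 10 genes at 0.07 mg/kg (49.5% of all probe sets), 6 of 10 at 0.69 mg/kg (48.7%), 6 of 10 at 6.88 mg/kg (48.7%), 6 of 10 at 68 mg/kg (48.9%) and 6 of 10 at 680 mg/kg (48.3%). The median log2 difference of the 10 was -0.04, 0.02, 0.01, 0.02 and 0.01 in the same order, while the median over all probe sets was -0.00348 at 680 mg/kg and nearer to 0 at the other doses. For 0 of the 10 genes did a dose group fail to overlap with vehicle, where 0.164% of probe sets did so at 0.07 mg/kg, 0.151% at 0.69, 0.2% at 6.88, 0.332% at 68 and 0.187% at 680 mg/kg.

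The intervals show how large a change could have gone unseen. Over the 50 combinations of gene and dose the fold values ran from 0.682 to 1.08, with 27 higher and 23 lower than vehicle. The 95% confidence interval included no change for 49, lay within 1.5-fold of vehicle for 41 and within 2-fold for 49. The 1 interval that left out no change was that of Serpina7 at 0.69 mg/kg. These intervals are for single genes and are not adjusted for the 50 comparisons.

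**Figure D1:**
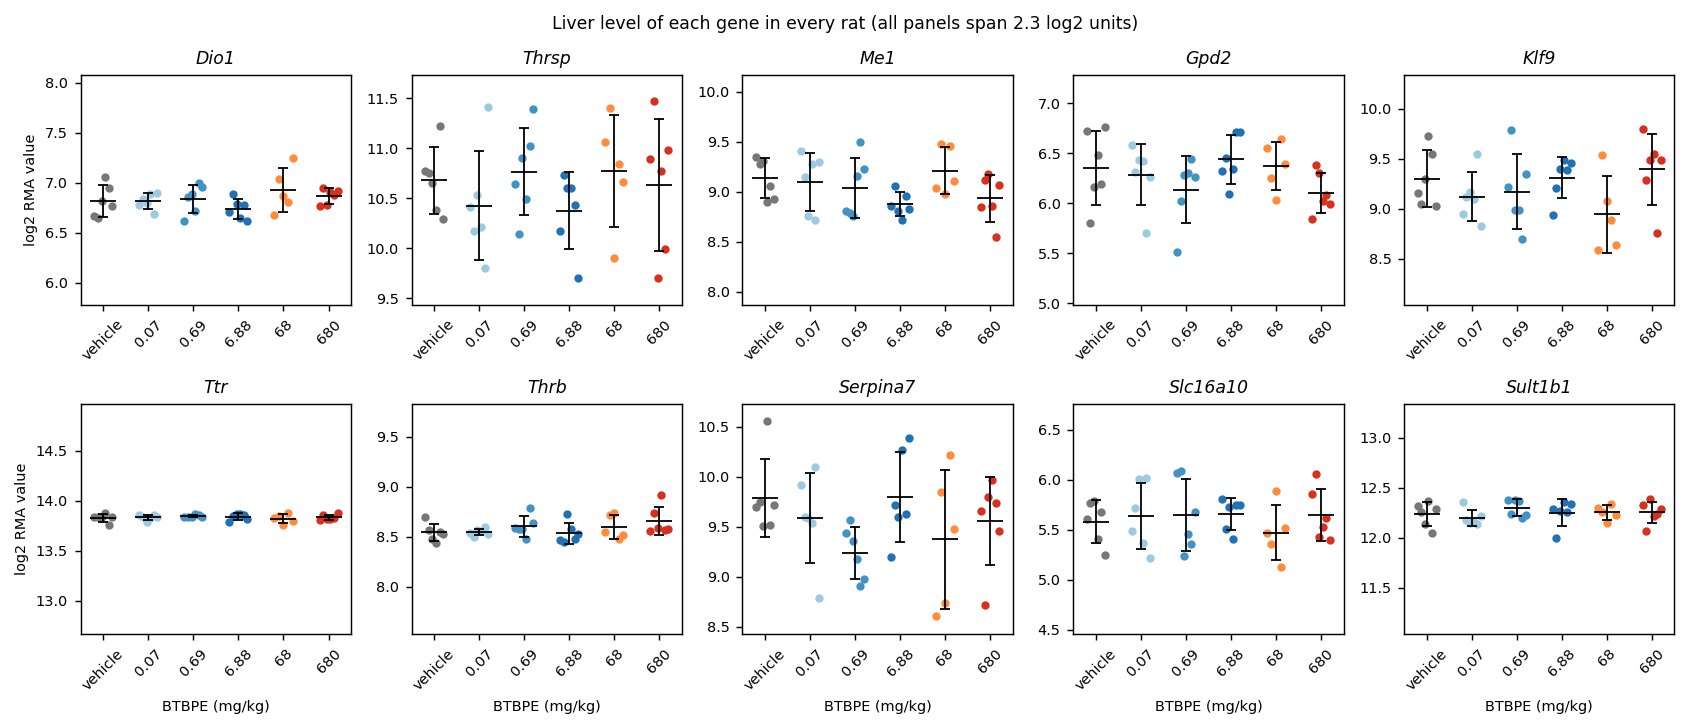
Log2 RMA value of the representative probe set of each gene (y axis, every panel spanning the same log2 range) in vehicle rats and at each BTBPE dose in mg/kg (x axis). Points are rats, bars are the group mean with its SD; the groups overlap in every panel, the Ttr points lie within 13.76 to 13.88 and those of Serpina7 spread from 8.61 to 10.56.

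**Figure D2:**
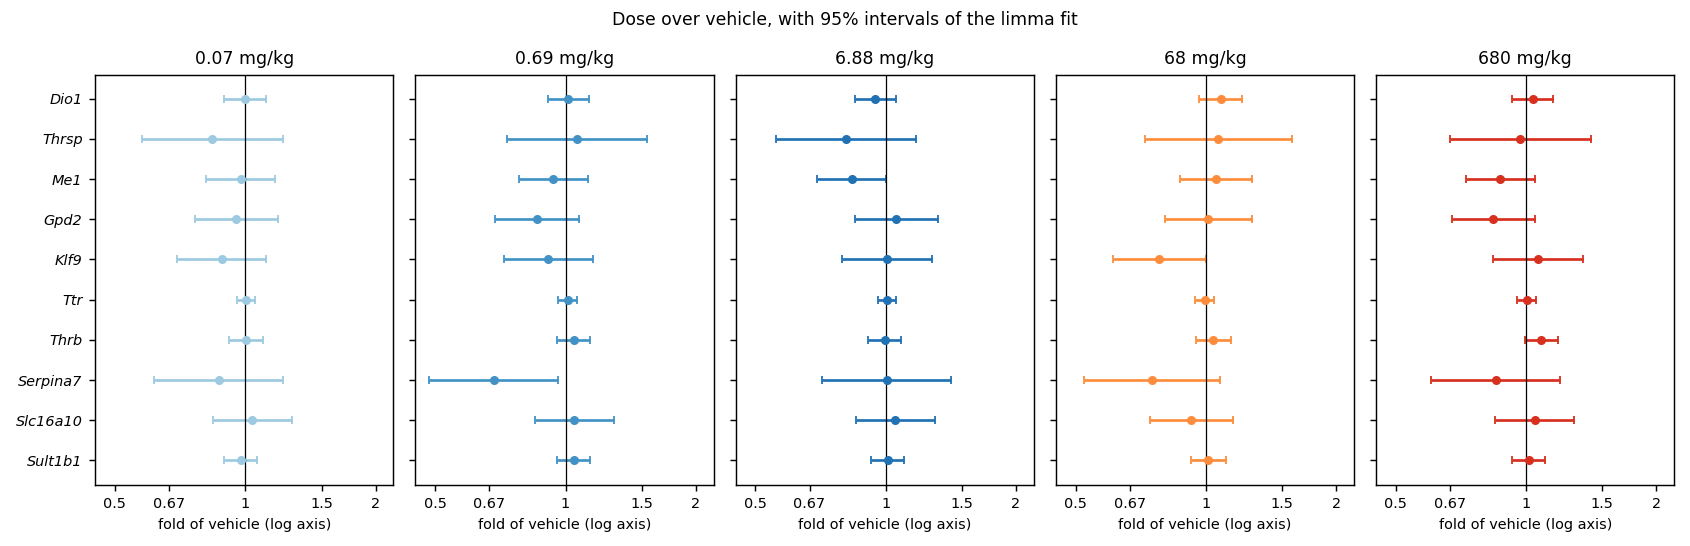
Fold of vehicle (x axis, log scale) for each gene (rows) at each dose (panels, low to high), with the 95% confidence interval of the limma fit; the vertical line is no change. The interval of Serpina7 at 0.69 mg/kg, 0.484 to 0.962, is the only 1 of 50 that lies wholly on one side of the line.

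Among the carriers, Ttr was the steadiest of the 10 genes and Serpina7 one of the most variable. Ttr values ran from 13.76 to 13.88 over all 35 rats, a range of 1.09-fold. Its group means lay between 13.82 ± 0.04 (SD, n = 5) at 68 mg/kg and 13.85 ± 0.01 (n = 6) at 0.69 mg/kg, and its 5 folds were 1.00 at 0.07, 1.01 at 0.69, 1.01 at 6.88, 0.994 at 68 and 1.00 at 680 mg/kg. The widest of these intervals, at 68 mg/kg, was 0.944 to 1.05. Ttr sat near the top of the scale, whose highest value was 14.44, and differences there may be compressed by saturation of the signal, which was not tested.

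Serpina7 had values of 9.51, 9.71 and 10.56 (lowest, median and highest) in vehicle rats, 8.79, 9.59 and 10.10 at 0.07 mg/kg, 8.90, 9.27 and 9.57 at 0.69 mg/kg, 9.19, 9.67 and 10.38 at 6.88 mg/kg, and 8.72, 9.70 and 9.97 at 680 mg/kg. The 5 rats at 68 mg/kg read 8.61, 9.85, 8.73, 10.22 and 9.48. All groups overlapped with vehicle. At 68 mg/kg 3 rats lay below the lowest vehicle rat and 2 lay inside the vehicle range. At 0.69 mg/kg the mean was 9.24 ± 0.26 in dosed rats and 9.79 ± 0.39 in vehicle rats (SD, n = 6 each), a fold of 0.682 with an interval of 0.484 to 0.962, and 0 of 6 dosed rats lay above the vehicle mean. limma's adjusted p was 1.00, and the exact two-sided permutation test of this 1 value gave p = 0.00649, unadjusted for the 50 comparisons of gene and dose. The difference did not grow with dose: the folds were 0.869 at 0.07, 0.682 at 0.69, 1.01 at 6.88, 0.751 at 68 and 0.851 at 680 mg/kg, and the slope over dose rank had a limma adjusted p of 0.995. Vehicle replicate 4, at 10.56, stood above the other vehicle rats (9.51 to 9.74). Without it the log2 difference at 0.69 mg/kg was -0.40 in place of -0.55. In the order of group means, 6.88 mg/kg (9.80) and vehicle (9.79) stood highest and 0.69 mg/kg lowest, and neighbours in that order differed by less than the SD within groups, 0.456.

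Among the genes that transport and metabolise the hormone, Slc16a10, Dio1 and Sult1b1 stayed near vehicle at every dose. Dio1, the readout most directly tied to hormone status in rat liver, had values of 6.65, 6.79 and 7.06 (lowest, median and highest) in vehicle rats, 6.68, 6.82 and 6.89 at 0.07 mg/kg, 6.62, 6.87 and 6.99 at 0.69 mg/kg, 6.61, 6.74 and 6.88 at 6.88 mg/kg, and 6.76, 6.89 and 6.95 at 680 mg/kg. At 68 mg/kg the 5 rats read 6.68, 7.04, 6.86, 6.81 and 7.25. The groups overlapped throughout, and the highest and the lowest rat of the series were both in dosed groups. At 680 mg/kg Dio1 averaged 6.86 ± 0.08 in dosed rats and 6.81 ± 0.16 in vehicle rats (SD, n = 6 each), a fold of 1.03 (interval 0.926 to 1.16, limma adjusted p = 0.995). Its other folds were 0.999 at 0.07, 1.02 at 0.69, 0.947 at 6.88 and 1.08 at 68 mg/kg, and its lowest and highest bounds over the 5 doses were 0.848 and 1.21. A 1.5-fold change of Dio1 in either direction thus lay outside the interval at each dose.

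Sult1b1 ran from 12.00 to 12.38 over all rats. Its folds were 0.975 at 0.07, 1.04 at 0.69, 1.01 at 6.88, 1.01 at 68 and 1.01 at 680 mg/kg, and its intervals lay between 0.893 and 1.14. Slc16a10 ran from 5.13 to 6.09, with folds of 1.04, 1.05, 1.05, 0.926 and 1.05 from the lowest dose to the highest. Its intervals were wider, from 0.742 at 68 mg/kg to 1.30 at 6.88 mg/kg, and its share of variance between groups, 5.79%, was the smallest of the 10.

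Thrb, the receptor, had values of 8.44, 8.54 and 8.70 (lowest, median and highest) in vehicle rats and 8.50, 8.55 and 8.60 at 0.07 mg/kg. At 680 mg/kg it read 8.56, 8.59 and 8.92, and 6 of 6 rats lay above the vehicle mean while the groups overlapped. The means were 8.66 ± 0.14 in dosed rats and 8.54 ± 0.09 in vehicle rats (SD, n = 6 each), a fold of 1.08 (interval 0.992 to 1.18) with a limma adjusted p of 0.994 and an exact two-sided permutation p of 0.108, unadjusted. Replicate 4 at 680 mg/kg read 8.92, and without it the log2 difference was 0.06 in place of 0.12. The slope over dose rank had a limma adjusted p of 0.973. The probe sets of Thrb disagreed: the next brightest gave 1.07-fold at 680 mg/kg, but another, with a mean of 4.88 near the array medians, read 4.61 in dosed rats and 5.10 in vehicle rats, 0.714-fold (limma adjusted p = 0.994). The last, a dim probe set with a mean of 2.94, read 2.88 in dosed rats at 680 mg/kg and 3.02 in vehicle rats. The representative probe set correlated with the next brightest at r = 0.67 over within-group deviations. Its r was 0.19 with the probe set of mean 4.88 and 0.14 with the dim one.

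Of the induced genes, Thrsp, a nuclear protein of lipogenic tissues known as Spot 14, varied most. It read 10.30, 10.70 and 11.23 (lowest, median and highest) in vehicle rats, 9.81, 10.32 and 11.41 at 0.07 mg/kg, 10.14, 10.77 and 11.40 at 0.69 mg/kg, 9.70, 10.52 and 10.74 at 6.88 mg/kg, and 9.70, 10.83 and 11.48 at 680 mg/kg. The 5 rats at 68 mg/kg read 11.07, 11.40, 9.90, 10.84 and 10.66. Every dosed group overlapped with vehicle, and the 6 rats at 680 mg/kg spanned almost the whole range of the series. The mean at 680 mg/kg was 10.64 ± 0.66 in dosed rats and 10.68 ± 0.33 in vehicle rats (SD, n = 6 each), a fold of 0.970 with an interval of 0.667 to 1.41. The folds at 0.07, 0.69, 6.88 and 68 mg/kg were 0.839, 1.06, 0.810 and 1.07, and the widest interval, at 68 mg/kg, was 0.722 to 1.58. The 3 probe sets of Thrsp moved together within groups (r = 0.994 and 0.991 with the representative).

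Me1, the cytosolic malic enzyme that supplies NADPH for fatty acid synthesis, was lowest at 6.88 mg/kg. It read 8.72, 8.84 and 9.06 (lowest, median and highest) at 6.88 mg/kg, against 8.89, 9.17 and 9.35 in vehicle rats. The groups overlapped, and 0 of 6 dosed rats lay above the vehicle mean. The means were 8.87 ± 0.12 in dosed rats and 9.14 ± 0.20 in vehicle rats (SD, n = 6 each), a fold of 0.834 (interval 0.694 to 1.00, limma adjusted p = 0.999), and the exact two-sided permutation p was 0.0281, unadjusted. At the next dose, 68 mg/kg, the rats read 9.04, 9.47, 8.98, 9.46 and 9.11, a fold of 1.05, and at 680 mg/kg the fold was 0.871 (0.725 to 1.05). The second probe set gave 0.877 at 6.88 mg/kg.

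Gpd2, the mitochondrial glycerol-3-phosphate dehydrogenase whose activity is a long-used index of thyroid hormone action in rat liver, was lowest at 680 mg/kg. It read 5.84, 6.05 and 6.38 (lowest, median and highest) at 680 mg/kg, against 5.80, 6.34 and 6.76 in vehicle rats, so that all dosed rats lay within the vehicle range. The fold was 0.840 (interval 0.673 to 1.05, limma adjusted p = 0.994). The folds at the lower doses were 0.952 at 0.07, 0.859 at 0.69, 1.06 at 6.88 and 1.01 at 68 mg/kg. Its second probe set gave 0.844 at 680 mg/kg and 0.924 at 6.88 mg/kg.

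Klf9, a zinc finger transcription factor induced by thyroid hormone and by glucocorticoids, was lowest at 68 mg/kg. The 5 rats there read 8.59, 9.54, 9.08, 8.89 and 8.63, against 9.03, 9.23 and 9.73 (lowest, median and highest) in vehicle rats. Of the 5 rats 4 lay below the vehicle mean and replicate 2 above it. The means were 8.95 ± 0.38 (SD, n = 5) in dosed rats and 9.30 ± 0.28 (n = 6) in vehicle rats, a fold of 0.781 (interval 0.609 to 1.00, limma adjusted p = 0.999), and the exact two-sided permutation p was 0.113, unadjusted. Without replicate 2 at 68 mg/kg the log2 difference was -0.50 in place of -0.36 and no alternative brought an adjusted p past the threshold. The second probe set gave 0.858 and a dim one, with a mean of 3.47, read 3.44 in dosed rats and 3.41 in vehicle rats. At 680 mg/kg Klf9 was 1.06-fold (0.840 to 1.35).

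A list of 40 other genes of thyroid hormone action, written with earlier results of these data known, was examined beside the 10. Of these, 34 had a probe set of 1 symbol, and the others were not analysed here. Of the 34, 27 lay above the lowest array median. In all, 0 of 34 passed the test in either direction at any dose. At an unadjusted p under 0.05 there were 1 of 34 at 0.07 mg/kg (2.94%, where 3.64% of all probe sets passed), 3 at 0.69 mg/kg (8.82% against 3.16%), 5 at 6.88 mg/kg (14.7% against 4.63%), 1 at 68 mg/kg (2.94% against 3.88%) and 6 at 680 mg/kg (17.6% against 4.95%). These genes were chosen with results known, and the shares were not tested. The median log2 differences were -0.00179, -0.01, 0.01, -0.01 and 0.02 from the lowest dose to the highest. Among the listed hormone importers, Slco1b2 and Slc10a1 were 0.989-fold and 0.975-fold at 680 mg/kg, and the second receptor gene, Thra, was 0.975-fold. They were picked by name and do not stand for the list, whose log2 differences at 680 mg/kg ran from -0.54 to 0.41.

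Cpt1a, Med1 and Shbg had the smallest p values of that list in the F test over all doses, and Shbg, Med1 and Sult1c2 at 680 mg/kg. Cpt1a encodes the carnitine palmitoyltransferase that admits fatty acids to mitochondria, a hormone-induced gene. It averaged 10.22 ± 0.16 at 0.69 mg/kg and 10.54 ± 0.23 in vehicle rats (SD, n = 6 each), 0.803-fold (interval 0.686 to 0.940), with 0 of 6 dosed rats above the vehicle mean. Its folds were 0.877 at 0.07, 1.08 at 6.88, 0.817 at 68 and 0.850 at 680 mg/kg, and the limma F test over all doses had an adjusted p of 1.00. Med1, a coactivator subunit that the receptor recruits, was 1.15-fold at 680 mg/kg (1.05 to 1.26, limma adjusted p = 0.988), higher than the vehicle mean in 5 of 6 rats, with 1 of its 2 other probe sets of opposite sign. Sult1c2, a sulfotransferase, was 1.33-fold at 680 mg/kg (1.03 to 1.70, limma adjusted p = 0.994). Shbg, whose product binds sex steroids, read 4.26 ± 0.12 (SD, n = 6) at 680 mg/kg, 0.26 above the vehicle mean on the log2 scale and with 6 of 6 rats above it, at a signal under every array's median that may be background. None of these passed the test.

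Markers of other cell types were read beside these genes. In whole tissue, fewer cells of a type and less RNA per cell cannot be told apart. All 8 measured macrophage markers were lower than vehicle at every dose, with a median log2 difference of -0.32 at 68 mg/kg and 0 of 8 passing the test. Of all genes, 46.7% to 51.7% were higher than vehicle, by dose. Every dose was set against the same 6 vehicle rats, so the doses do not repeat the result independently. The summed linear signal of the macrophage markers ran from 2121 to 4277 at 68 mg/kg and from 3320 to 4644 in vehicle rats. Their part in the values of the 10 genes was not tested. Sinusoidal endothelium markers were higher for 0 of 8 at 0.07 and 68 mg/kg, 1 at 0.69 and 6.88 mg/kg and 5 at 680 mg/kg. Lymphocyte markers were higher for 1 of 7 at each dose except 0.69 mg/kg, where 2 were. Of 7 lymphocyte markers 2 lay above the lowest array median, and of 6 exocrine pancreas markers 1, Cela1, did.

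Rats of 1 dose differed from each other far more in some of these genes than in others. The SD within groups was 0.497 for Thrsp, above 98.9% of the 9669 genes that lay above the lowest array median. It was 0.456 for Serpina7 (98.7th percentile), 0.312 for Klf9 (95.9), 0.291 for Gpd2 (95.1), 0.276 for Slc16a10 (94.5) and 0.239 for Me1 (92.3). Dio1 at 0.136 (57.7) lay near the median of those genes, 0.126, and Thrb at 0.104 (31.2), Sult1b1 at 0.103 (29.7) and Ttr at 0.031 (0.165) lay below it. The share of a gene's variance that lay between groups was 5.79% to 21.6% over the 10, where unrelated groups give 14.7% on average and the median gene showed 12.4%.

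The deviation of each rat from its dose group's mean was then correlated between genes, to ask which of the 10 moved together among rats of 1 dose. Of the 45 pairs of members, 0 passed a within-group permutation test after adjustment over the 45, and 8 had an unadjusted p under 0.05. The correlations ran from -0.50 (Gpd2 with Slc16a10, permutation p = 0.00461, adjusted p = 0.128) to 0.45 (Klf9 with Serpina7, permutation p = 0.0138, adjusted p = 0.128), with a median of 0.03. Dio1 and Thrsp, both classical hormone readouts, had r = 0.29 (rho = 0.39, permutation p = 0.104, adjusted p = 0.292). Thrsp and Me1 had r = 0.41 (rho = 0.38, permutation p = 0.0281, adjusted p = 0.211), with r positive in 5 of 5 groups of 6 (0.247 to 0.529) and among the 5 rats at 68 mg/kg. Thrsp and Serpina7 had r = -0.38 (adjusted permutation p = 0.280), with a negative r in 5 of 5 groups of 6 and a positive one among the 5 rats at 68 mg/kg. Within single groups of 6 rats, 0 of 225 correlations passed an exact permutation test after adjustment (smallest adjusted p = 0.438), and 13 had an unadjusted p under 0.05.

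The same deviations were set against 34 measured genes of fatty acid and triglyceride synthesis, the circadian clock and the glucocorticoid and fasting response, 3 programmes to which hormone-induced genes also answer. Of 340 relations 22 passed the permutation test after adjustment, 15 positive and 7 negative, against 24 by Spearman's rho. The lists were chosen with earlier results of these data known, which the adjustment does not cover. Of the 22, 18 had the same sign in all 5 groups of 6 rats, 17 of them also among the 5 rats at 68 mg/kg, and all 22 kept their sign without the 2 rats farthest from the median of the member. These fell to 6 of the 10 genes: Thrsp with 8, Me1 with 6, Serpina7 with 3, Klf9 and Gpd2 with 2 each and Sult1b1 with 1. Dio1, Ttr, Thrb and Slc16a10 had 0.

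Thrsp moved with genes of fatty acid synthesis among rats of 1 dose. Its r was positive with 12 of 12 of them and 6 passed: Srebf1, the transcription factor that drives lipogenic genes (r = 0.81), Acly, ATP citrate lyase (0.74), Pnpla3 (0.69), Tkfc, a kinase of fructose metabolism (0.65), Fasn, fatty acid synthase (0.65), and Pklr, liver pyruvate kinase (0.64), with adjusted permutation p of 0.00136 to 0.0125. Of 9668 other genes, 46 had an r over 0.6 with Thrsp, and the 95th percentile of r was 0.42. The median r of Thrsp over the 12 was 0.55. Dio1, Gpd2 and Ttr also had a positive r with 10 of the 12, with medians of 0.10, 0.18 and 0.21 and 0 that passed. For Srebf1 rho was 0.74, r was 0.77 without the 2 farthest rats, and it lay between 0.731 and 0.983 in the 5 groups of 6. Thrsp was 0.98 above its group mean in replicate 6 at 0.07 mg/kg, where Srebf1 was 0.41 above, and 0.93 below in replicate 3 at 680 mg/kg, where Srebf1 was 0.36 below. Both genes stood on the same side of their group means in 27 of 35 rats, in dosed and vehicle groups alike. Thrsp was negatively correlated with Irs2, an insulin receptor substrate that rises on fasting (r = -0.57, adjusted permutation p = 0.0102), and with Mt1, a metallothionein (r = -0.55, adjusted permutation p = 0.0261). These were the 2 that passed of 11 glucocorticoid and fasting genes. Over those 11 its r was positive with 4 and ran from -0.57 to 0.51, with a median of -0.13.

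Me1 followed the same list, with positive r for 11 of 12 genes and 6 that passed: Fasn (r = 0.74), Acaca, acetyl-CoA carboxylase (0.69), Acly (0.69), Pnpla3 (0.61), Elovl6, a fatty acid elongase (0.56), and Pklr (0.55). Of 9668 other genes, 90 had an r over 0.6 with Me1, and the 95th percentile of r was 0.47. Me1 and Fasn lay on the same side of their group means in 28 of 35 rats (rho = 0.72, r = 0.70 without the 2 farthest rats, adjusted permutation p = 0.00136). Their r was negative in 1 of the 5 groups of 6 rats, 6.88 mg/kg, where it was -0.468, and reached 0.916 in another. At 6.88 mg/kg the r of Me1 was also negative with Acaca (-0.65) and Pnpla3 (-0.20). With Elovl6 it was negative among the 5 rats at 68 mg/kg (-0.48). Only Acly and Pklr kept a positive r with Me1 in every group. Deviations of Me1 also correlated with the Actb 3′ minus 5′ difference, a measure of RNA integrity that ran from 1.02 to 1.37 over the arrays (r = 0.55, adjusted permutation p = 0.0179). With that measure regressed out, r was 0.71 with Fasn, 0.59 with Acly, 0.60 with Acaca, 0.67 with Pnpla3, 0.35 with Elovl6 and 0.53 with Pklr.

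Serpina7 was high in rats that were low in some lipogenic genes, with a negative r for 10 of the 12. Other members shared this: r was positive with 1 of the 12 for Klf9, 2 for Slc16a10 and 3 for Sult1b1. The median r was -0.25 for Serpina7, -0.26 for Klf9, -0.31 for Slc16a10 and -0.14 for Sult1b1. Serpina7 was negatively correlated with Elovl6 (r = -0.61, rho = -0.59, adjusted permutation p = 0.0102), Acss2, an acetyl-CoA synthetase (r = -0.61, adjusted permutation p = 0.00136), and Lpin1, a phosphatidate phosphatase (r = -0.49, adjusted permutation p = 0.0487), each with a negative r in 5 of 5 groups of 6. Lpin1 stood on the fasting list, over which the r of Serpina7 was positive with 8 of 11 genes. Serpina7 and Elovl6 lay on opposite sides of their group means in 28 of 35 rats. Replicate 4 at 68 mg/kg was 0.84 above in Serpina7 and 0.63 below in Elovl6, and replicate 2 at 680 mg/kg was 0.84 below and 0.71 above.

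Klf9 moved with Sgk1, a kinase induced by glucocorticoids (r = 0.73, rho = 0.75, adjusted permutation p = 0.00170), with r between 0.507 and 0.927 in the 5 groups of 6. Sgk1 was the only 1 of 11 glucocorticoid and fasting genes that passed with Klf9. Over that list r was positive with 5 of 11, with a median of -0.09. Klf9 was negatively correlated with Acaca (r = -0.57, adjusted permutation p = 0.0261). Klf9 correlated with the Actb measure at r = -0.38 (adjusted permutation p = 0.106) and rho = -0.43 (adjusted permutation p = 0.0478), the latter under the threshold. With that measure regressed out the r of Klf9 with Sgk1 was 0.71. Gpd2 was correlated with 2 of 11 clock genes, positively with Nr1d2, a clock repressor (r = 0.59, adjusted permutation p = 0.0125), and negatively with Cry1 (r = -0.57, adjusted permutation p = 0.0261). Over the 11 its r was positive with 4, with a median of -0.07. With Nr1d2 it was positive in 4 of the 5 groups of 6 and -0.109 in the other. Gpd2 also followed the Actb measure (r = 0.52, adjusted permutation p = 0.0190). With that measure regressed out its r was 0.46 with Nr1d2 and -0.37 with Cry1. The part of RNA integrity in the results of Me1, Gpd2 and Klf9 was otherwise not tested. Sult1b1 was correlated with Mt1 (r = 0.53, adjusted permutation p = 0.0261).

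**Figure D3:**
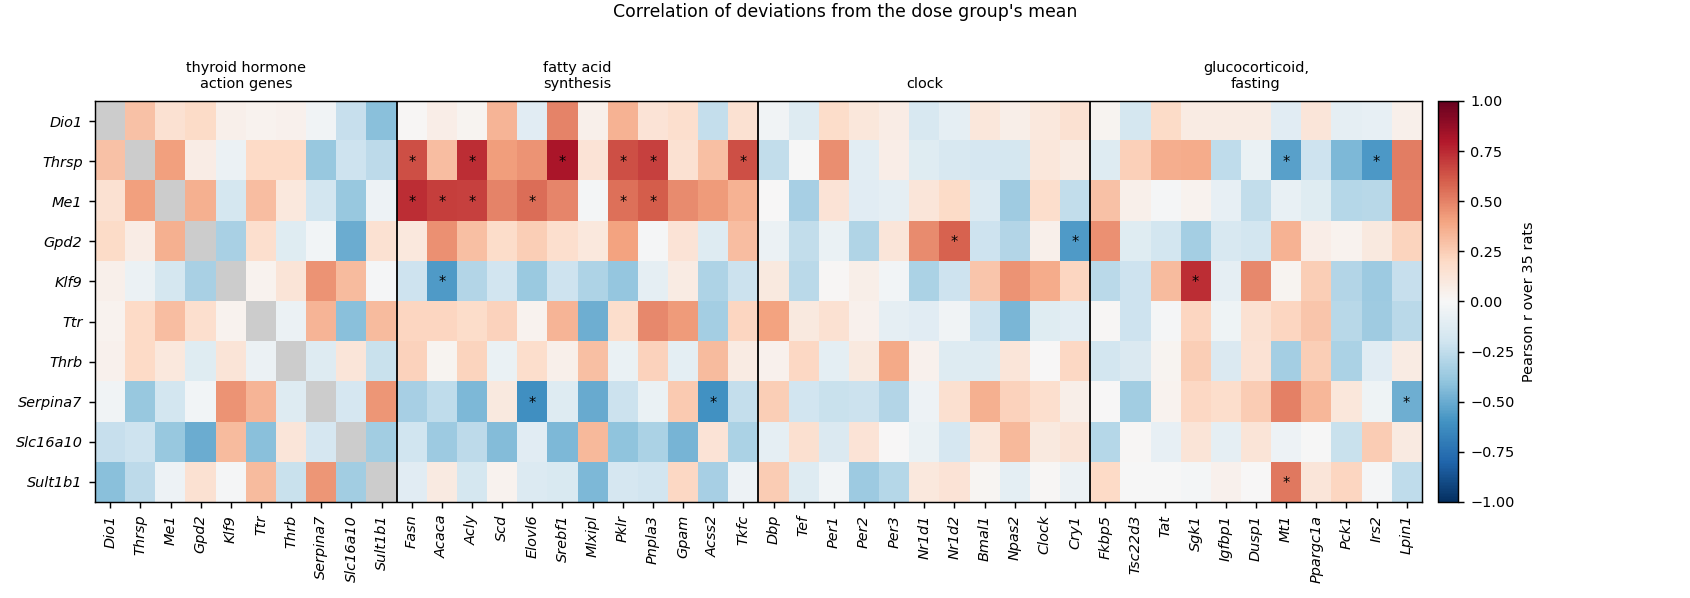
Pearson r over 35 rats (colour scale) between deviations from the dose group's mean, for each of the 10 genes (rows) against the 10 genes and the 34 listed genes (columns). Stars mark the 22 of 340 relations with listed genes that passed after adjustment; the rows of Thrsp and Me1 are red across fatty acid synthesis, and 0 of 45 pairs among the 10 genes passed.

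**Figure D4:**
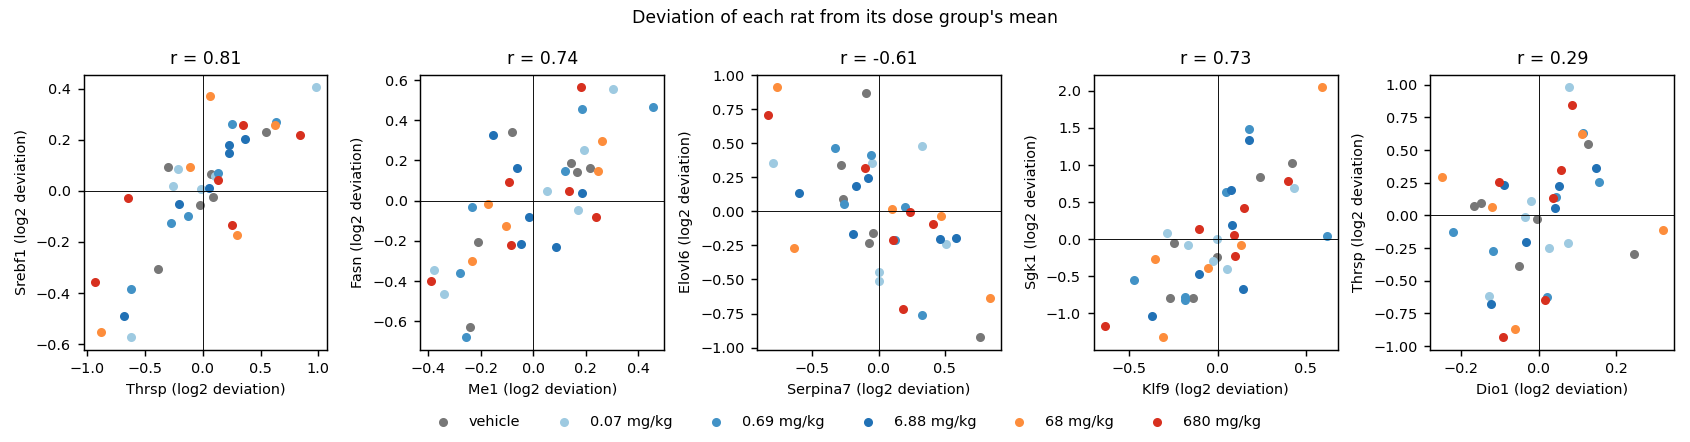
Deviation of each rat from its dose group's mean (log2) in 5 pairs of genes, coloured by group from vehicle to 680 mg/kg. Rats of all groups lie along the same trends for Thrsp with Srebf1 (r = 0.81), Serpina7 with Elovl6 (-0.61) and Klf9 with Sgk1 (0.73). Me1 with Fasn (0.74) shows its trend except in 1 group of 6, where r was -0.468. Rats scatter more widely for Dio1 with Thrsp (0.29).

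The genes whose deviations were most like each member's over the 35 rats were named among 9668 others, as a description. Thrsp was most like Srebf1, Acly and Coa7 (r = 0.73). Me1 was most like Pgp (0.84), Fads1, a fatty acid desaturase (0.79), and Secisbp2l (0.78). Klf9 was most like Midn (0.86), Klf10, a related zinc finger factor (0.86), and Hapstr1 (0.85). Serpina7 was most like Chic2 (0.78), Igfbp2 (0.71) and Marchf7 (0.70). Slc16a10 was most like Cyp3a2 (0.76) and Cyp2e1 (0.73), both drug-metabolising cytochromes, and Ehhadh, an enzyme of peroxisomal fatty acid oxidation (0.70). Gpd2 was most like Prox1, a hepatocyte transcription factor (0.73), Stx5 (0.71) and Fhip2a (0.70), and Sult1b1 most like Gas5 (0.76), Eif4ebp1 (0.76) and Tmtc1 (0.73).

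Dio1 was most like Ndufs3, a subunit of respiratory complex I (r = 0.70), Ppib (0.65) and Mrpl10 (0.65), and Ttr most like Fads2 (0.68), Ahsg (0.68) and Fam180a (0.67). Thrb reached 0.58 with Ptgr1, 0.55 with Tmem87b and 0.55 with Rbm38. None of the 10 genes was among the 3 most like another of them.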

How the data were processed

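Liver RNA of 35 rats in 6 dose groups was hybridised to Affymetrix 3′ expression arrays. Per the submitters' processing notes the authors used RMA and the affy package, with versions not given in the sources used here. Deposited values were read as log2 RMA signal per probe set, with the base taken from RMA's convention. Of 31099 probe sets the 57 controls were left out and 31042 tested with no further normalisation or filter. RMA's quantile step would reduce a shift shared by most transcripts. Signals have no read depth, and the number of arrays limits the precision. Groups were taken from the sample titles.

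Genes were named from the platform annotation, checked by gene identifier against RefSeq GRCr8 (20758 of 20826 probe sets of 1 symbol matched), and stood for by their brightest probe set on average. limma 3.58.1 in R 4.3.3 fitted 1 coefficient per group to all 35 arrays. The authors' own test, per the series design, was R/maanova; limma's moderated test in a one-way model was run in its place, with Benjamini-Hochberg adjustment over all probe sets and a threshold of 0.05, together with a trend over dose rank (0 to 5) and an F test. Confidence intervals are at 95%.

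Deviations from the group mean were correlated over 35 rats, with two-sided p-values from 100000 permutations within groups (smallest possible 1e-05), adjusted within each family of 45 and 340 relations. Groups of 6 were tested over all 720 permutations. Scripts were tested on simulated data. The genes named were all 10 members, the 3 genes most like each, and, of the other thyroid hormone genes, the 3 with the smallest p in the F test and at 680 mg/kg. Slco1b2, Slc10a1 and Thra were named outside this rule. Members and lists were chosen with earlier results of these data known. Alternatives were another normalisation, filters, other probe sets, the replicate number as a block and leaving out each rat.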

Additional observations from a re-analysis of the deposited data

Results flagged for a closer look

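In 4 of the 60 combinations of gene and group, 1 rat lay apart from the rest of its group by Dixon's ratio; chance gives about 1 in 20 groups. Serpina7 in vehicle replicate 4 read 10.56, where the other vehicle rats read 9.51 to 9.74. Gpd2 in replicate 5 at 0.07 mg/kg read 5.70, where the others read 6.26 to 6.58. Sult1b1 in replicate 1 at 0.07 mg/kg read 12.35 (others 12.14 to 12.22), and in replicate 2 at 6.88 mg/kg it read 12.00 (others 12.26 to 12.36).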

How the results depend on the processing

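The count of called probe sets was 0 in all 191 alternatives run for the 7 tests across probe sets. For the 50 differences of the 10 genes, 985 alternatives were run and 0 passed the threshold (smallest adjusted p = 0.812). Of these, 975 moved the log2 difference by less than 1 SD and 10, all from other probe sets of the same gene, by more. Over all 985 alternatives the sign changed in 90, which belong to 29 of the 50 differences. In the 73 of these that left out 1 rat the difference as reported was at most 0.10. Among other probe sets the largest such difference was Klf9 at 68 mg/kg, -0.36 against 0.03 in the dim probe set. Serpina7 at 0.69 mg/kg ranged from -0.62 to -0.40 with 1 rat left out, and with only vehicle and that dose fitted its unadjusted limma p was 0.00408. The count of correlated pairs among the 10 genes was 0, and 0 to 1 with 1 rat left out, being 1 when vehicle replicate 4 or 680 mg/kg replicate 2 was dropped. The replicate number as a block gave 1 of these pairs and 25 of the pairs with listed genes in place of 22. Rats of the same number in different groups had a median r of -0.02 over 85 pairs. It ran from -0.29 to 0.24, with 8 pairs over 0.1. The labels do not say what the numbers stand for, and a median cannot tell whether they pair some rats. The pairs with listed genes numbered 18 to 26 with 1 rat left out (with 20000 permutations), 19 with the Actb measure regressed out and 31 with deviations from the mean of all rats. The cause of these shifts was not tested.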
